A study of Mus musculus with 1119 samples.

Results

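The cells described here are basal keratinocytes of the P30 hair bulb, divided into those with and those without the proliferation gene Mki67. They were chosen by measured values. A cell was kept when 2000 or more genes stood at 1 TPM or more (transcripts in 1000000), the basal keratin gene Krt5 was at 1 TPM or more and the smooth muscle gene Myh11 was below 1 TPM. Cells with Mki67 at 1 TPM or more are called cycling, and cells below 1 TPM are called non-cycling. The cells came from 5 plates, P1-3, P1-4, P1-5, P1-6 and P2-1, which gave 61, 59, 56, 54 and 66 cells, in that order. Of these, 38, 37, 42, 26 and 39 were cycling and 23, 22, 14, 28 and 27 were non-cycling. They are 77.1% of the cells of the P30 bulb and 26.5% of the 1119 cells of the series.

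The study sorted bulge stem cells, hair germ cells, matrix cells and dermal papilla cells from mouse skin at several steps of the hair cycle, and sequenced full-length cDNA of each cell by the Smart-seq2 method. All bulb cells came from the back skin of P30 mice of the strain Lhx2-GFP (CD1), labelled as of mixed sex. No label names a treatment. The sort used Pcadherin, Sca-1, CD34 and the integrins α6 and b1 together with GFP. In this strain GFP is driven by Lhx2, a transcription factor gene of hair follicle progenitors, so the cells are those that this reporter and the surface markers selected. The plates are read from the well names. The labels do not say how many animals gave the cells. Each side is therefore 1 pool of cells, no test between cells was made, and the 5 plates serve as a technical spread only.

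In a growing hair follicle the matrix surrounds the dermal papilla at the base of the bulb. Its transit-amplifying cells divide rapidly, leave the cell cycle as they move up, and become the medulla, cortex and cuticle of the shaft, the inner root sheath or the companion layer. Signals of the WNT, BMP, hedgehog, Notch and FGF families pass between matrix and papilla, and the matrix also supplies Kit ligand to the pigment cells among it. Mki67 encodes the Ki-67 protein of dividing cells, whose messenger is made mainly from S phase to mitosis, so a cell in early G1 can stand below the threshold.

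The authors' annotation names all bulb cells as matrix cells. Among the cells kept, median Krt5 was 70.6 TPM in cycling and 61 TPM in non-cycling cells. Trp63, the transcription factor of basal keratinocytes, was at 1 TPM or more in 100% of cycling and 95.6% of non-cycling cells, Dlx3 in 96.2% and 91.2%, Hoxc13 in 85.2% and 88.6%, and Msx2 in 94% and 78.1%. Foxn1, the nude gene of postmitotic matrix cells, was carried by 11.5% and 15.8%. Krt14, the partner of Krt5, was at 1 TPM or more in 67.6% and 50% of cells. Of the cells with Lef1 at 1 TPM or more 67.5% were cycling, and of the 56 cells without it 35.7%. The matrix label therefore rests on Msx2, Dlx3, Hoxc13 and Lef1, with Foxn1 in few cells. Msx2 and Lef1 were less common in non-cycling cells, so the label has less behind it on that side.

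The rule left out 88 cells of the bulb, 5 with fewer than 2000 genes, 72 further cells with Krt5 below 1 TPM and 11 with Myh11 at 1 TPM or more. Of the 72 cells without Krt5, 18 carried Mki67, a share of 25% (exact binomial 95% interval 15.5% to 36.6%, which here and below covers the counting of cells only). Mki67 itself ranged from 1.02 to 126.4 TPM in cycling cells, with a median of 23.7 TPM. Of the non-cycling cells, 85 had 0 TPM and 29 lay between 0 and 1 TPM. Of the cycling cells, 64 lay from 1 to below 10 TPM and the rest at 10 TPM or more. The values nearest the thresholds were 0.89 and 1.02 TPM for Mki67, 0.99 and 1.17 TPM for Krt5, 0.81 and 1.46 TPM for Myh11, and 1524 and 2333 genes.

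Cycling cells made up 61.5% of the cells kept (interval 55.7% to 67.1%). By plate the share was 62.3% in P1-3 (38 of 61 cells), 62.7% in P1-4 (37 of 59), 75% in P1-5 (42 of 56), 48.1% in P1-6 (26 of 54) and 59.1% in P2-1 (39 of 66). P1-5 stood highest and P1-6 lowest, and the intervals of these plates, 61.6% to 85.6% and 34.3% to 62.2%, overlapped narrowly. Under the same rule, 25 matrix cells of P25 to P27 mice carried Mki67, which is 13.4% of the cells kept there (interval 8.84% to 19.1%). Those cells came from another strain, Lgr5-eGFPiresCreER;R26-tdTomato, and another sort, so age, strain and sort cannot be told apart.

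Cycling cells yielded more genes and more messenger RNA. The median number of genes at 1 TPM or more was 8100 in cycling and 6760 in non-cycling cells. The ratio of messenger RNA to the added ERCC spike-in RNA had a median of 38.7 in cycling cells and 21.7 in non-cycling cells. In the 5 plates, in the order given above, that median was 39.9, 37, 38.2, 35.9 and 40.6 in cycling cells against 19.4, 22.5, 21.3, 20.8 and 24.4 in non-cycling cells. The medians of the sides did not overlap between plates, but single cells did: the ratio ran from 3 to 136.5 in cycling and from 5.07 to 103.7 in non-cycling cells. Ribosomal RNA took a similar median share of the TPM, 76.1% and 77.9%. When the cells were divided into 5 strata by genes seen, the cycling share was 39%, 37.3%, 59.3%, 79.7% and 91.7% from the fewest genes to the most. The number of genes seen thus moves with the split, and its part in the differences below was not tested. Each difference of a gene was therefore also taken within these strata.

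**Figure D1:**
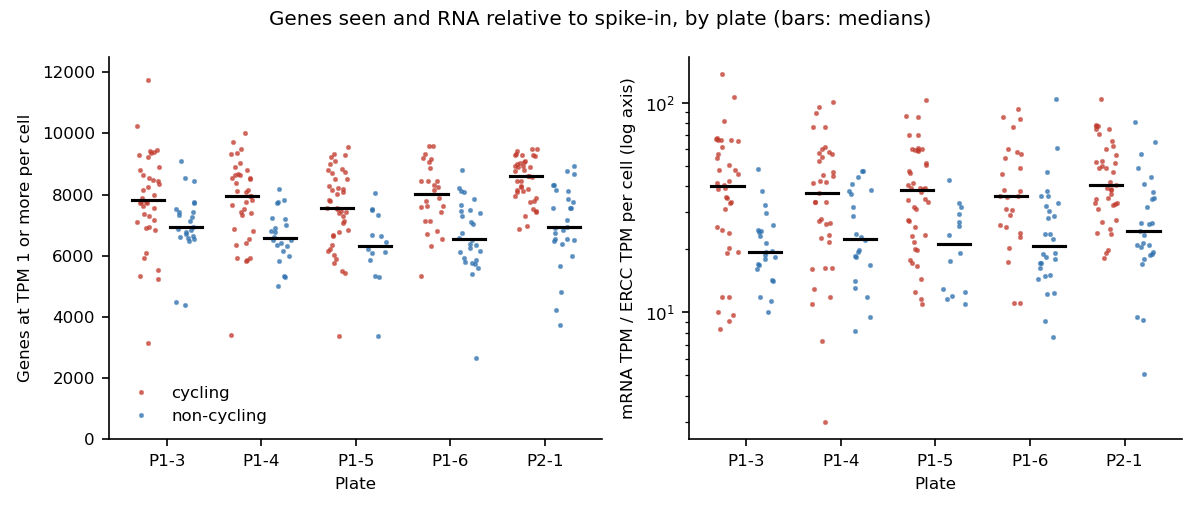
Genes at 1 TPM or more (left) and the ratio of messenger RNA TPM to ERCC TPM on a log axis (right) in each cycling (red) and non-cycling (blue) cell, by plate, with bars at the medians. The medians of cycling cells lie above those of non-cycling cells in all 5 plates, and the cells of both sides overlap.

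The measure used for genes was the difference between the mean log2(TPM + 1) of cycling and of non-cycling cells, called the log2 difference. It understates the change of genes at low levels. A gene was counted as higher or lower when this difference was 1 or more in size and had the same sign in all 5 plates. Of 10032 genes measured, 1090 (10.9%) were higher and 130 (1.3%) lower in cycling cells. A difference above 0 in all 5 plates was found for 40.1% of genes, and one below 0 in all 5 plates for 6.3%. The median gene stood at 0.33, a shift toward cycling cells, and at 0.07 within strata. Within strata, 479 genes (4.77%) were higher and 1.56% of genes lower, so the share of higher genes among those counted was 89.3% without strata and 75.3% within them. For the counts within strata, the sign in each plate was that of the difference without strata. On the ERCC scale, which keeps the larger RNA content of cycling cells, the median gene stood at 0.66 and that share was 97.7%. It was 76.6% on the ratio of mean TPM. Because Mki67 chose the sides, all of these differences describe the 2 sides and test nothing.

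The genes of DNA replication and mitosis were higher in cycling cells. All 30 of the listed G2/M genes were counted as higher, with a median log2 difference of 2.47, as were 26 of the 28 S phase genes, with a median of 2.03. These lists share the cell cycle with Mki67, so their direction repeats the choice of the cells. Top2a, the DNA topoisomerase of chromosome separation, had plate means of 60, 49.4, 54.2, 44.4 and 51.3 TPM in cycling cells against 0.923, 4.25, 2.75, 4.04 and 4.23 TPM in non-cycling cells. Its lowest plate mean in cycling cells was far above its highest in non-cycling cells, and its log2 difference was 3.30. Cdk1, the kinase that starts mitosis, differed by 3.48, and its cyclins Ccna2 and Ccnb1 by 3.38 and 3.35. Uhrf1, which maintains DNA methylation at replication, differed by 3.48 and the histone gene Hist1h2ap by 5.28.

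Counted per cell, cycling cells carried a median of 22 of the 30 G2/M genes at 1 TPM or more, and non-cycling cells a median of 2. At least 10 were present in 74.7% of cycling and 2.63% of non-cycling cells. The S phase genes were less divided, with medians of 22 and 8 of 28 and with 10 or more in 86.3% of cycling and 37.7% of non-cycling cells. So 46 cycling cells carried Mki67 with fewer than 10 G2/M genes. These 46 cells had a median of 7221 genes and a median RNA ratio of 24.3, between 6729 genes and 21.3 in the non-cycling cells with few G2/M genes and 8283 genes and 41.6 in the cycling cells with 10 or more.

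The promoters of 3 of the most divided mitotic genes are shown because this group moved as 1 block and because 2 short motifs are textbook features of it. These are the CCAAT box, bound by the factor NF-Y, and the cell cycle homology region, the contact of the DREAM and MuvB complexes. Each sequence is the 150 bases before the annotated start, 5′ to 3′ on the strand of the gene, from RefSeq on GRCm38.p6. Capitals mark CCAAT or its reverse complement ATTGG, and TTTGAA or TTCGAA or the reverse complement TTCAAA. Cdk1 lies on the minus strand at chr10:69352913-69353062, Ccnb1 on the minus strand at chr13:100786487-100786636 and Top2a on the minus strand at chr11:99024190-99024339.
Cdk1: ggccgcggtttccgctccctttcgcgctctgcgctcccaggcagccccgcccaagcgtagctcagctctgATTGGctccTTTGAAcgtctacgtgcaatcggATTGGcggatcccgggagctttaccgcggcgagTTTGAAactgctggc
Ccnb1: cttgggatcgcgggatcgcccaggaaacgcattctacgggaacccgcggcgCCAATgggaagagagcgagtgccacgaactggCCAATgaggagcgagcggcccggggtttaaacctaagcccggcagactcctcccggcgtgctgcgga
Top2a: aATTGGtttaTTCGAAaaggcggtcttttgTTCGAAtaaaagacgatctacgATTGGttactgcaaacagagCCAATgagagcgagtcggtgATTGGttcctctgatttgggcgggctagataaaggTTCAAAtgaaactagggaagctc

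The Cdk1 stretch holds 2 CCAAT boxes and 2 homology regions, that of Ccnb1 holds 2 CCAAT boxes, and that of Top2a holds 4 CCAAT boxes and 3 homology regions. Promoter windows of 250 bases before the start were found for 26 of the 30 G2/M genes, 27 windows in all. CCAAT on either strand was present in 77.8% of them and in 33.8% of all 32851 windows of the table. The homology region was present in 33.3% and in 17.1%, and both motifs together in 33.3% and 6.02%. In the 25 windows of 23 S phase genes, CCAAT stood in 64%, the homology region in 12%, and an E2F site (TTTGGCGC, TTTCGCGC, TTTCCCGC or TTTGCCGC) in 28%, against 1.86% of all windows. For the 1090 higher genes these shares were 42.7%, 17.1% and 8.47%, and for the 130 lower genes 32.1%, 5.22% and 1.49%. A match gives letters in a window and no more.

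Genes of growth and biosynthesis were also higher in cycling cells. The listed genes of nucleotide and one-carbon synthesis were counted as higher in 16 of 16 cases (median 1.28), those of ribosome biogenesis in 10 of 12 (median 1.16), and the G1 cyclins with MYC-type factors in 8 of 12 (median 1.21). Of all genes 10.9% were higher. Within strata these list medians were 1.01, 0.76 and 0.73, beside 0.07 for all genes. Odc1, the rate-limiting enzyme of polyamine synthesis, had plate means of 262.4, 262.4, 219.5, 285.5 and 315.4 TPM in cycling cells against 55, 93.9, 68.1, 45.3 and 88.1 TPM in non-cycling cells. Every cycling plate stood above every non-cycling plate, with a log2 difference of 3.12 and of 1.77 within strata. Ccnd2, which encodes cyclin D2 of the G1 phase, had plate means of 152.6, 187.5, 202.8, 189.2 and 121.5 TPM against 46.4, 63.9, 60.6, 62.4 and 55 TPM, with a log2 difference of 2.28. Ccnd1 differed by 1.14, Cdk6 by 1.48, Mycl by 1.73, Mycn by 1.37 and Myc by 1.07. Psat1, Shmt2 and Mthfd2, enzymes of serine and folate metabolism, differed by 2.10, 1.93 and 1.86, and the nucleolar protein gene Nop56 by 2.16. The listed glycolysis genes were not divided in this way: 0 of 13 were counted, and their median was 0.18, or -0.14 within strata.

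Outside the cell cycle, the largest log2 difference was that of Mt2, a metallothionein that binds zinc. Its plate means were 647.6, 478.4, 551.4, 589.1 and 741.1 TPM in cycling cells and 45.3, 80.4, 75.6, 72.5 and 124.6 TPM in non-cycling cells, a difference of 4.28. Next came Odc1 (3.12), Mt1 (2.99) and the heterochromatin protein gene Cbx5 (2.73). They were followed by Cd24a for a surface glycoprotein (2.64), Fbln1 for the matrix protein fibulin 1 (2.63), Cldn10 for a claudin (2.60) and St14 for the membrane protease matriptase (2.59). Fbln1 was carried by 83% of cycling and 37.7% of non-cycling cells, and St14 by 79.7% and 29.8%. Dctpp1, Hirip3, Nup205, Lsm3, Whsc1 and Snrpd1 complete the genes named by size with Ccnd2.

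Inhibitors of the cell cycle and quiescence genes showed no common direction. None of the 16 measured was counted in either direction, 7 stood above and 9 below 0, and the median was -0.08. Cdkn1a, the p21 inhibitor, had plate means of 44.3, 37, 53.6, 40.7 and 69.6 TPM in cycling cells and 73, 92.2, 104.2, 70.4 and 104.4 TPM in non-cycling cells. It was lower in cycling cells in all 5 plates, by a log2 difference of -0.94, and stood at 0.10 without the 25% of cells with the most melanocyte marker TPM, or at -0.57 when Gpnmb was left out of that sum. Cdkn2b, the p15 inhibitor, stood at -0.77 and Foxo3 at -0.42. Cdkn1b, the p27 inhibitor, stood at 0.28, Cdkn2c, the p18 inhibitor, at 0.80, and Rb1 at 0.78. Cdkn1c, the p57 inhibitor, was carried by 11.5% of cycling and 0.877% of non-cycling cells. Of the 10 measured p53 target genes, Trp53inp1 was counted as lower (-1.13) and none as higher.

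The largest differences below 0 were those of Soat1 and Hspb1. Soat1, which esterifies cholesterol, had plate means of 66.8, 173.95, 169.30, 107.16 and 375.05 TPM in cycling cells and 587.59, 707.23, 385.12, 479.86 and 864.22 TPM in non-cycling cells. No cycling plate reached a non-cycling plate, and the log2 difference was -3.24. Hspb1, the small heat shock protein 27, had plate means of 38.7, 56.4, 42, 44.7 and 152.72 TPM against 163.02, 184.95, 166.75, 177.16 and 361.27 TPM, a difference of -3.20. It was at 1 TPM or more in 99.1% of non-cycling cells and in 70.3% of cycling cells. Of the 55 cells without Hspb1, 98.2% were cycling, and of the 74 cells with most of it, 31.1%. Next in size were the secretin gene Sct (-2.26), the glycosphingolipid enzyme B3gnt5 (-2.18), Ecm1 (-2.14), the serine palmitoyltransferase subunit Sptssb (-2.11), the transglutaminase Tgm6 (-2.02), the lipid droplet coat gene Plin2 (-1.95) and Csta1 of the cystatin A family (-1.95). Alox8, Ak1, Sytl1 and Ivl, the last encoding involucrin of the cornified envelope, stood between -1.89 and -1.84.

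**Figure D2:**
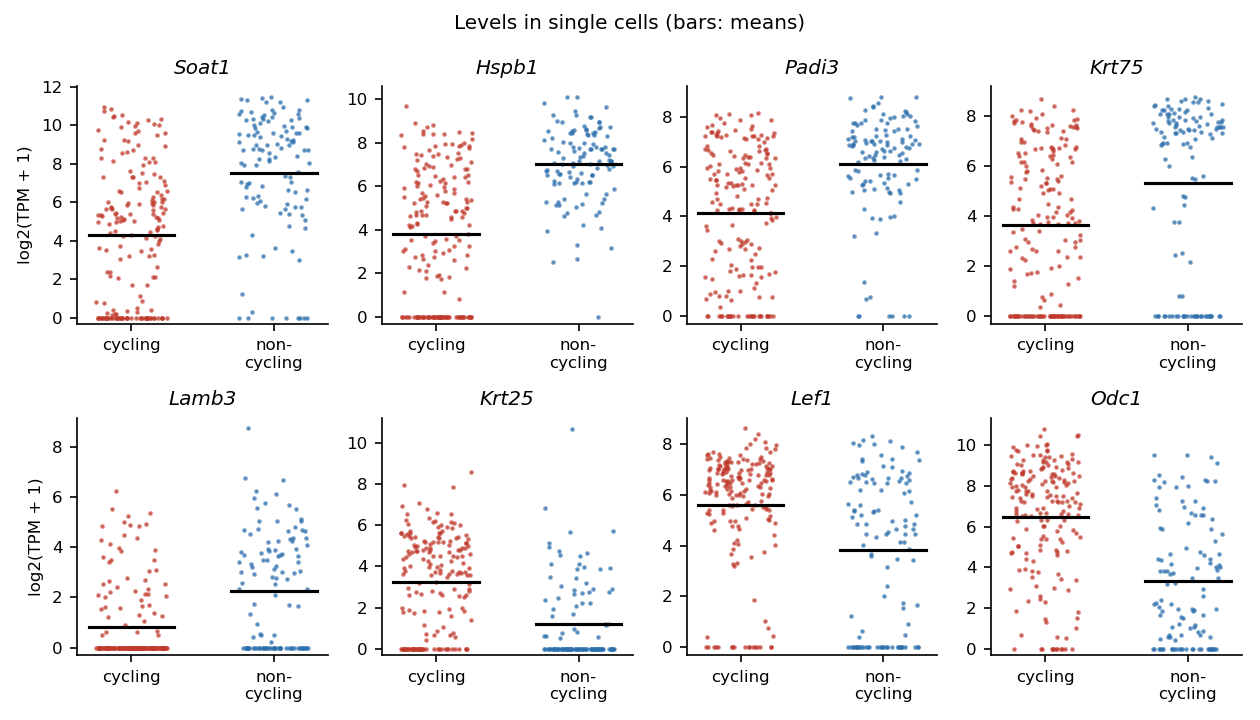
Levels of 8 genes in single cells as log2(TPM + 1), cycling cells in red and non-cycling cells in blue, with bars at the means. Soat1, Hspb1, Padi3, Krt75 and Lamb3 have lower means in cycling cells, Krt25, Lef1 and Odc1 higher means, and in each gene the cells of the sides overlap, with many cells at 0.

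Medulla genes were lower in cycling cells. Of the 10 listed medulla and companion layer genes 5 were measured, 4 were counted as lower (1.3% of all genes were) and none as higher, and their median was -1.64, or -1.97 within strata. Padi3, the enzyme that turns arginine of trichohyalin into citrulline, had plate means of 44.6, 56.8, 44.3, 50.2 and 76.5 TPM in cycling and 103.6, 141.4, 89.3, 128.2 and 126.3 TPM in non-cycling cells, a log2 difference of -1.94. Krt75, a keratin of the medulla and companion layer, had plate means of 42.1, 57.7, 42.2, 51.1 and 85.5 TPM against 104.9, 151.1, 115.9, 135.8 and 197.2 TPM, a difference of -1.67. For both genes the plates of the sides did not overlap. Tchh, which encodes trichohyalin, differed by -1.64 and Foxq1, the transcription factor of the medulla, by -1.49. These genes were not absent from cycling cells: Krt75 was carried by 69.2% of cycling and 73.7% of non-cycling cells, with medians of 12.7 and 156.8 TPM over all cells of a side. Padi3 was carried by 80.2% and 93%, Tchh by 43.4% and 61.4% and Foxq1 by 62.6% and 70.2%. Cells in the top 25% of Krt75 were cycling in 32.4% of cases, and those of Foxq1 in 35.1%.

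Gpnmb, a glycoprotein of melanosomes that heads the melanocyte markers here, went with these medulla genes. Its mean was 282.8 TPM in cycling and 786.3 TPM in non-cycling cells, a log2 difference of -1.88. Across non-cycling cells its Pearson correlation with Foxq1 was 0.98 and with Krt75 0.93, and across cycling cells 0.86 and 0.82, on log2(TPM + 1). These are descriptions over cells that share plates and differ in genes seen. The summed TPM of all 10 melanocyte markers had a median of 147.8 in cycling and 953.1 in non-cycling cells. Plate means of that sum ran from 318.7 to 1132 and from 809.1 to 1320 TPM. Without Gpnmb the median sum of the other 9 markers was 45.9 and 52 TPM. The defining pigment genes Mlana, Pmel and Tyrp1 were carried by 36.3%, 37.4% and 33.5% of cycling cells and by 54.4%, 48.2% and 48.2% of non-cycling cells. At least 2 of the 10 markers were present in 88.5% and 75.4% of cells. Of the 8 markers measured 1 was counted as higher and 1 as lower. In all 2 stood above 0 and 6 below, with a median of -0.36. Kit, the melanocyte receptor gene, went the other way from Gpnmb. Of the cells with Kit 81.8% were cycling, and of those without it 49.5%. Leaving out the 25% of cells with the highest sum of all 10 markers moved the medulla median to -0.51, Krt75 to -0.51, Foxq1 to -0.30 and Soat1 to -2.43. Leaving out the 25% with the highest sum of the 9 other markers gave -1.43, -1.43, -1.16 and -3.23. The part of pigment cells in the medulla difference was not tested further.

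Genes of adhesion to the basement membrane were partly lower in cycling cells. All 11 listed were measured, 3 were counted as lower (1.3% of all genes were) and none as higher, and the median was -0.57, or -0.08 on the ERCC scale. The lower genes were Lama3 and Lamb3, which encode chains of the laminin that anchors basal keratinocytes, and Itgb4, the integrin β4 that binds it in hemidesmosomes. Lamb3 had plate means of 1.96, 1.61, 2.16, 2.93 and 7.68 TPM in cycling and 12.6, 10.7, 36.6, 13.1 and 13.6 TPM in non-cycling cells, a log2 difference of -1.46. Lama3 had plate means of 7.83, 6.34, 8.33, 10.6 and 9.68 TPM against 17.9, 17, 13.5, 14.6 and 19.5 TPM, a difference of -1.26. Neither gene overlapped between the sides. Itgb4 differed by -1.02, while Itga6 (-0.57) and Itgb1 (-0.60), genes of the sort, and Dst (-0.83) were below 0 in all 5 plates without being counted. Col17a1 (0.25), Trp63 (0.23) and Krt14 (0.65) stood above 0. Within strata Lamb3 stood at -1.24, Lama3 at -1.33 and Itgb4 at -0.89, and on the ERCC scale at -1.23, -0.90 and -0.54.

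The outer root sheath and stem cell list had 7 of 16 genes measured, 1 lower (1.3% of all genes were) and none higher. Its median was -0.45. The lower gene was Cxcl14, a chemokine of the outer root sheath, with plate means of 35.2, 51.7, 47.8, 29.8 and 36.5 TPM in cycling and 128.5, 93.3, 134.8, 76.7 and 92.8 TPM in non-cycling cells, a log2 difference of -1.29. Krt17 differed by -1.23 but was above 0 (0.09) in 1 plate. Krt15, the bulge keratin, stood at -0.65 with 1 plate above 0, and at -0.05 within strata. Lgr5, a stem cell receptor that did not reach 30% of either side, was carried by 13.7% of cycling and 23.7% of non-cycling cells, with intervals of 9.09% to 19.6% and 16.2% to 32.6%.

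Smooth muscle markers moved the same way as these genes. At least 2 of the 8 markers were present in 16.5% of cycling and 31.6% of non-cycling cells, and plate means of their sum ran from 3.47 to 71.6 TPM and from 9.86 to 257.7 TPM. Tagln stood at -1.17 and Myl9 at -1.29, both below 0 in all 5 plates. Papilla and fibroblast markers went the other way, with 2 or more of 10 in 40.7% and 23.7% of cells and plate means of the sum from 26.5 to 74.6 TPM and from 10.9 to 92.3 TPM. Dcn, which encodes decorin, was carried by 45.1% of cycling and 8.77% of non-cycling cells. Without the cells that held 2 or more papilla, muscle, endothelial or immune markers, 89 cycling and 64 non-cycling cells remained. In these the medulla median was -2.12 and the adhesion median -0.46, Lamb3 stood at -1.04, and 7.13% of genes were higher and 1.91% lower. Of the 93 named genes counted in all cells, 13 were under 1 in size here. Lef1 went from 1.76 to 0.49, Wnt5a to 0.67, Mycn from 1.37 to 0.51, Id3 from 1.13 to 0.53 and Trps1 from 1.05 to 0.48. The others were Ccnd1, Krt28, Msx1, Pdgfa, Smad3, Sox21, Trp53inp1 and Wnt10a. Sebocyte markers were present as 2 or more of 7 in 90.7% and 81.6% of cells. Endothelial markers were present in 0.549% and 1.75%, immune markers in 1.1% and 1.75%, and Merkel cell markers in 1.1% and 4.39%, each as 2 or more, with Cd3e, Cd207, Krt20 and Atoh1 in no cell. How far cells of these kinds contribute to the differences was not tested further.

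Genes were also counted per cell. The gene combinations were chosen after their values were seen, so a falling or rising share of cycling cells restates that choice. Of cells with 0, 1 and 2 of the genes Lama3 and Lamb3 at 1 TPM or more, 87.7%, 66.2% and 40.8% were cycling. Median genes seen in these cells were 7814, 7552 and 7289. For the medulla genes Padi3, Krt75, Tchh and Foxq1 there was no such ladder: the cycling share was 80%, 58.5%, 76.5%, 73.1% and 50.8% from 0 to 4 genes. Among non-cycling cells, 27 carried all 4 medulla genes together with both laminin genes, 38 carried only the full medulla set, 34 only the full laminin set and 15 neither full set. Among cycling cells the same counts were 17, 50, 25 and 90. Cells with neither full set could still carry some of these genes. With 3 or more medulla genes taken as the set, 11 non-cycling and 62 cycling cells had neither. Across non-cycling cells Lamb3 correlated with Krt75 at -0.31 and with Kitl at -0.37, and across cycling cells at 0.10 and 0.00.

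**Figure D3:**
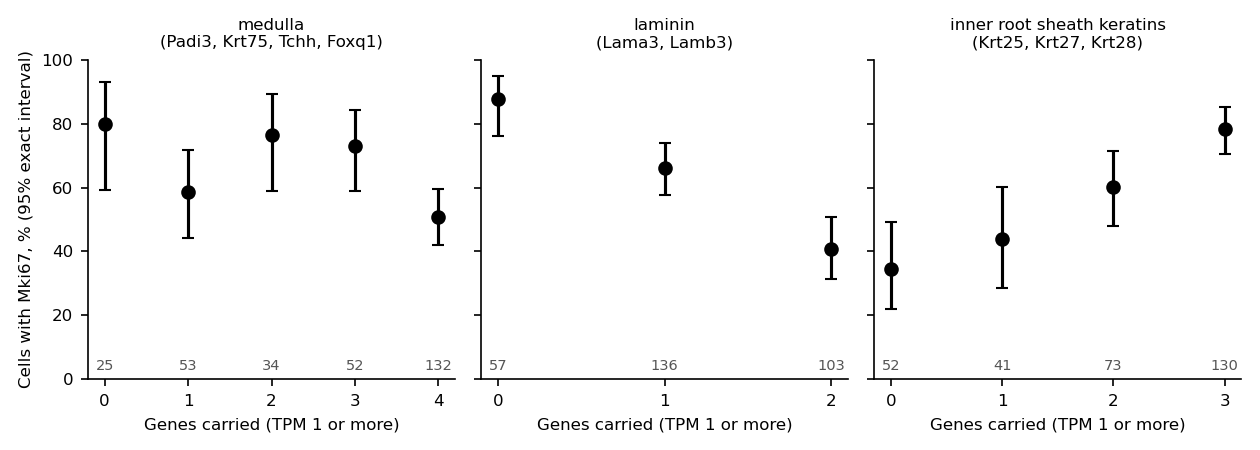
Share of cells with Mki67 (vertical axis, percent, with exact 95% binomial intervals) against the number of genes carried at 1 TPM or more, for 4 medulla genes, 2 laminin genes and 3 inner root sheath keratins, with the number of cells under each point. The share is 87.7% with no laminin gene and 40.8% with both, and 34.6% with no inner root sheath keratin and 78.5% with all 3.

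Inner root sheath genes split by kind. Of 15 listed genes 9 were measured, 2 were higher (10.9% of all genes were) and 2 lower (1.3%), with a median of -0.50. The higher genes were keratins of the inner root sheath. Krt28 had plate means of 20.1, 28.6, 25.6, 29.6 and 22.1 TPM in cycling and 9.25, 15.9, 7.29, 14.6 and 9.58 TPM in non-cycling cells, a log2 difference of 1.39 and of 0.75 within strata. Krt25 had plate means of 19.6, 32.2, 29, 31.4 and 17.3 TPM against 1.61, 6.78, 1.64, 63.4 and 9.36 TPM. The high mean of plate P1-6 goes with the highest non-cycling cell, at 1661 TPM, against a median of 0 over non-cycling cells. The log2 difference of Krt25 was 2.01, with 72% of cycling and 33.3% of non-cycling cells carrying it, and its ratio of mean TPM gave only 0.36. Krt27 stood at 0.49 and at -0.09 within strata. Krt71, Krt72 and Krt73 reached 30% of neither side.

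The lower genes of the inner root sheath list were Tchhl1, a trichohyalin-like gene (-1.52), and Tgm3, a transglutaminase that cross-links trichohyalin (-1.10). Padi1 (-0.65) and Tgm1 (-0.71) were below 0 in all 5 plates. The number of inner root sheath keratins per cell, of Krt25, Krt27 and Krt28, went with a cycling share of 34.6%, 43.9%, 60.3% and 78.5% from 0 to 3. Median genes seen went with it too, at 6247, 6852, 7583 and 8283, and its part was not tested. Among the cells above the median of genes seen, 90.2% of the Krt25 carriers and 55.6% of the others were cycling. Among the cells below it these shares were 52.6% and 34.1%.

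Of 21 listed shaft genes 5 were measured. S100a3, a calcium-binding protein of the cuticle, was counted as lower (-1.27), with means of 45.1 and 116.2 TPM. The shaft keratins stood above 0, Krt83 at 0.80, Krt86 at 0.50 and Krt35 at 0.32, and the keratin-associated gene Krtap8-1 at 0.17, and none of these was counted. Krt86 was carried by 33% of cycling and 10.5% of non-cycling cells. The list median was 0.32, beside 0.33 for all genes. Of 10 differentiated epidermis genes, Ivl and Krt10 were measured, with Krt10 at 0.26 and a median sum of the list of 7.73 TPM in cycling and 25.7 TPM in non-cycling cells. Krt1 and Flg were in no cell.

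Matrix transcription factors were for the most part near the median gene. Of 17 listed, 15 were measured, 4 were higher (10.9% of all genes were) and none lower, with a median of 0.36. Lef1, the nuclear partner of β-catenin, had plate means of 91.8, 67.7, 97.6, 74.3 and 109.6 TPM in cycling and 41, 43.5, 38.6, 58.6 and 82.6 TPM in non-cycling cells. The plates of the sides overlapped at the edge, and each plate had the higher mean in cycling cells, with a log2 difference of 1.76 and of 0.68 within strata. Msx1 differed by 1.19, Sox21 by 1.15 and Trps1 by 1.05. These 3 homeobox, SOX and GATA-type factors stood at 0.58, 0.92 and 0.57 within strata. Dlx3 (0.57) and Msx2 (0.53) were above 0 in all 5 plates. Hoxc13, which drives hair keratin genes, stood at -0.55 and Prdm1, the BLIMP1 repressor, at -0.75, each with 1 plate above 0, and Prdm1 stood at 0.31 without the 25% of cells with the most melanocyte marker TPM, or at -0.50 with Gpnmb left out of that sum.

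WNT ligands differed in opposite directions. Of 13 measured WNT ligands and receptors 3 were higher (10.9% of all genes were) and 1 lower (1.3%), and the median was 0.08. Wnt5a, which signals mostly without β-catenin, had plate means of 29.4, 27.9, 43.7, 33 and 32.5 TPM in cycling and 12.2, 9.18, 10.8, 11.6 and 15.1 TPM in non-cycling cells, a log2 difference of 1.67. It stood at 0.85 within strata and at 0.67 without cells holding papilla, muscle, endothelial or immune markers. Wnt3, a ligand of the β-catenin pathway, had plate means of 3.75, 3.82, 4.8, 3.85 and 9.34 TPM against 11.8, 12.5, 12.2, 14.9 and 21.3 TPM, a difference of -1.32. Without the cells rich in melanocyte markers Wnt3 stood at -0.44, or at -1.11 with Gpnmb left out of the marker sum. Both ligands kept the plates apart, in opposite directions. Of cells in the top 25% of Wnt5a 85.1% were cycling, and of those in the top 25% of Wnt3 28.4%. Wnt10a differed by 1.03 (0.57 within strata) and the receptor Fzd10 by 1.62, with 86.3% and 50% of cells carrying Fzd10. Wnt10b, carried by 22.5% of cycling cells, was carried by 2.63% of non-cycling cells.

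WNT response genes had a median of 0.73, with 3 of 10 measured counted as higher (10.9% of all genes were) and none as lower. Apcdd1, an inhibitor of WNT signals that the pathway induces, had plate means of 27.5, 24.7, 28.7, 41.3 and 28.9 TPM in cycling and 9.2, 5.66, 9.09, 5.04 and 19.7 TPM in non-cycling cells, a difference of 2.0. The other 2 were Lef1 and Ccnd1. Axin2, the most used readout of the pathway, stood at 0.17 with means of 17.1 and 19 TPM, and Notum at -0.19. Within strata the list median was 0.23, Apcdd1 stood at 0.93 and Axin2 at -0.50.

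The hedgehog genes given here differed in direction. Ptch1, a receptor induced by the pathway, stood at -0.56 and below 0 in all 5 plates, and Gli1 at 0.55 with 1 plate below 0. The ligand gene Shh was carried by 9.34% of cycling cells (interval 5.54% to 14.5%) and by 0.877% of non-cycling cells (0.0222% to 4.79%). Of the 18 Shh carriers, 17 were cycling. None of the 8 measured machinery genes was counted, with Sufu at 0.97, Gli2 at 0.86 and Gli3 at -0.64.

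Among BMP genes the ligand Bmp4 was the most divided. It was carried by 51.6% of cycling cells (interval 44.1% to 59.1%) and 7.02% of non-cycling cells (3.08% to 13.4%), with a log2 difference of 1.49 and of 1.23 within strata. Of the cells with Bmp4, 94 were cycling, a share of 92.2%. Its plate means were 5.36, 3.84, 8.34, 7.77 and 7.88 TPM against 1.7, 4.08, 0.0736, 0.364 and 0.114 TPM, and in P1-4 the non-cycling mean was the higher one. Bmp7 stood at 0.87, and Bmp2 at -0.71 with 2 plates above 0. Of 8 measured response genes Id3 (1.13) and Msx1 were counted as higher (10.9% of all genes were). Id1 stood at -0.10 and Bambi, a decoy receptor, at -0.71. The 3 measured BMP inhibitors gave Fstl1 at -0.89, Bmper at -0.43 and Twsg1 at 0.74. The medians of ligands and receptors and of response genes were 0.22 and 0.24.

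In the Notch pathway the receptor Notch1 (1.2) and the feedback gene Nrarp (1.23) were higher in cycling cells in all 5 plates. Notch1 had plate means of 55.4, 37.8, 29.9, 28.9 and 9.41 TPM in cycling and 19.9, 26.8, 10.9, 17.8 and 4.29 TPM in non-cycling cells, with plate P2-1 low on both sides. Nrarp was carried by 41.8% and 7.89% of cells. The glycosyltransferase Lfng stood at 1.14 with 1 plate at -0.06, Jag1 at 0.64, Jag2 at -0.28 and the target Hes1 at 0.03. The medians were 0.32 for ligands and receptors and 0.66 for response genes. Notch1 stood at 0.44 without the 25% of cells with the most melanocyte marker TPM and at 0.96 with Gpnmb left out of that sum.

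None of the FGF, ERK response and EGF genes was counted. Fgfr1, Fgfr2 and Fgfr3 stood at 0.86, 0.69 and 0.84, the first 2 with 1 plate below 0, and Fgfr3 at -0.09 without the cells rich in melanocyte markers, or at 0.63 with Gpnmb left out of the marker sum. Etv4, a target of FGF and ERK signals, stood at 0.88 and Dusp6 at 0.25. The ERK response median was 0.57 over 7 genes and the EGF family median -0.06 over 5. Of 5 measured TGF-beta genes Tgif1, a corepressor of SMAD proteins (1.56), and Smad3 (1.13) were counted as higher (10.9% of all genes were). The list median was 0.44. Within strata these values were 0.99, 0.56 and 0.12.

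Genes for signals to melanocytes, papilla and vessels had 7 of 16 measured, 2 higher (10.9% of all genes were) and none lower. Their median was -0.27. Kitl, the ligand of the melanocyte receptor Kit, had plate means of 94, 118.9, 120.7, 117.2 and 277.3 TPM in cycling and 215.7, 322.3, 216.1, 254.3 and 434.6 TPM in non-cycling cells. The difference was below 0 in all 5 plates, -0.99 in all cells and -1.94 within strata, but 0.29 without the 25% of cells with the most melanocyte marker TPM. It was -0.49 when Gpnmb, which correlated with Kitl at 0.92 across non-cycling cells, was left out of that sum. Kitl correlated with Foxq1 at 0.91 across non-cycling cells and at 0.80 across cycling cells. Efnb1, an ephrin (1.27), and Pdgfa, a growth factor for papilla cells (1.01), were counted as higher. Within strata they stood at 1.08 and 0.61, and without the cells rich in melanocyte markers at 1.47 and 0.52. With Gpnmb left out of the marker sum they stood at 1.57 and 0.98. Cxcl12 stood at -0.93 and Vegfa at 0.09.

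**Figure D4:**
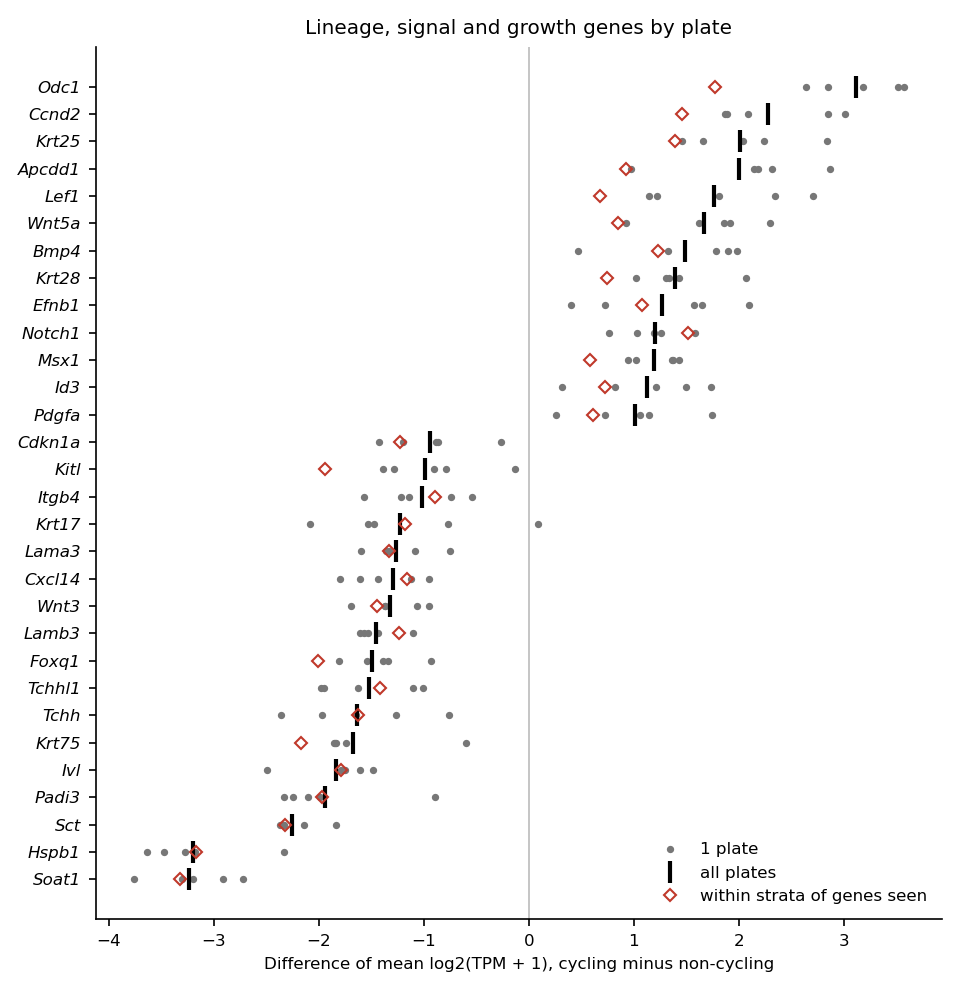
Log2 differences (cycling minus non-cycling, mean log2(TPM + 1)) of 30 lineage, signal and growth genes, with 1 grey point a plate, a black bar for all plates and a red diamond for the value within strata of genes seen. Of these genes, Krt17 alone has a plate on the other side of 0, and the diamonds of Odc1, Lef1, Apcdd1 and Wnt5a lie nearer to 0 than the bars while those of Krt75, Foxq1 and Kitl lie farther.

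**Figure D5:**
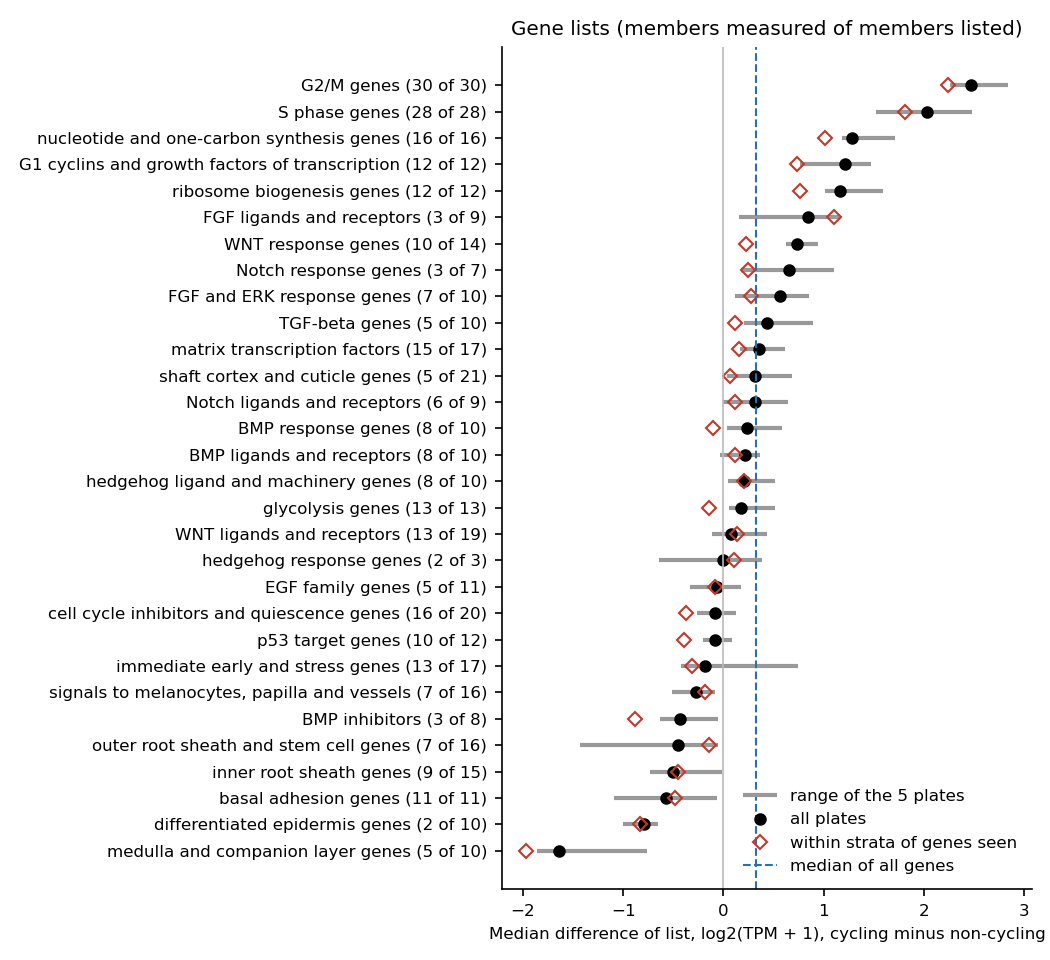
Median log2 difference of 30 gene lists, with the members measured of those listed in brackets, a grey line for the range of the 5 plates, a black point for all plates, a red diamond for the value within strata and a dashed line at the median of all genes, 0.33. G2/M and S phase genes lie highest, at 2.47 and 2.03, and medulla and companion layer genes lowest, at -1.64.

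The 46 cycling cells with fewer than 10 G2/M genes were also set beside the non-cycling cells with few G2/M genes and the cycling cells with 10 or more. On mean log2(TPM + 1) they lay between these for 79 of 82 named genes counted as higher or lower, which were chosen for a difference between the sides. The position of the 46 was not taken over all genes counted or measured, so no background stands beside it. The exceptions were Foxq1, S100a3 and Trps1. Mean Soat1 was 635.8 TPM in these non-cycling cells, 449.8 TPM in the 46 and 94.2 TPM in the cells with many. Mean Hspb1 was 220.3, 148.2 and 41.3 TPM, and mean Krt75 144.7, 105.2 and 39.2 TPM. Ccnd2 stood at 55.7, 125.5 and 184.8 TPM, Odc1 at 68.4, 172.6 and 299.1 TPM, and Bmp4 was carried by 6.31%, 13% and 64.7% of these cells.

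Genes that were not counted did not all follow this order. Kitl had a mean log2(TPM + 1) of 5.97 in the non-cycling cells with few G2/M genes, 6.10 in the 46 and 4.61 in the cells with many, and Cdkn1a 4.95, 5.16 and 3.60. The 46 stood highest for Krtap8-1, at 2.48, 3.77 and 2.25, with 39.6%, 63% and 40.4% of cells carrying it. They stood lowest for Krt14, at 2.96, 2.45 and 4.07. These examples were chosen after their values were seen.

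The same split in the P25 to P27 matrix gave values from cells that the rule at P30 did not use. Mki67 at 1 TPM chose the sides there too, so the direction of cell cycle genes repeats that choice. Of the genes higher at P30, 1011 were measured at both ages and 94.8% of them stood above 0 in the younger cells, with a median of 1.01. Over all 8540 genes measured at both ages, 77.5% stood above 0, with a median of 0.38. Of the 82 lower genes measured in both, 56.1% stood below 0, against 22.5% of all genes, with a median of -0.11. Hspb1 was lower there too, with means of 112.1 and 301.2 TPM and a log2 difference of -2.35, and Ecm1 stood at -1.75. Soat1 was at 0.998 and 1.26 TPM, Krt75 at 0 and 2.05 TPM and Padi3 at 0 TPM on both sides, levels too low to show a difference of these genes. The 1 gene of the medulla and companion layer list that was measured there, Cryab, stood at -1.10. The laminin genes were less than 1 apart on the log2 scale, Lamb3 at 40.3 and 56.2 TPM (-0.42) and Lama3 at 0.30. Lef1 stood at -0.10, Kitl at 1.61, Notch1 at 0.40, Bmp4 at 0.98, Krt28 at 1.17 and Wnt5a at 1.02. The 25 cycling cells limit these values, and levels were compared only within each table.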

How the data were processed

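Single cells were sorted into plates, amplified by Smart-seq2 and sequenced, per the labels' protocols. The authors deposited TPM values, made with Bowtie2 2.2.9, RSEM 1.2.30 and mm10 per the submitters' processing notes, and a table of cell types whose entries per cell have no unit. TPM columns summed to 1000000 within rounding (999999.02 to 1000000.77), so they hold no read depth. No count test was possible, and counting error per cell is unknown.

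From the 46609 rows, 92 ERCC and 361 ribosomal RNA rows, mitochondrial rows and Mki67 were kept out of the gene measure. Genes were measured when they stood at 1 TPM or more in 30% of the cells of either side. Differences were of mean log2(TPM + 1), over all cells, per plate and within 5 strata of genes seen, averaged by cells. No columns were identical. Cells were sorted into wells without droplets, no doublet caller was run, and wells with more than 1 cell were not looked for. Exact intervals (95%, Clopper-Pearson) cover the counting of cells. Of symbols on several rows the row with the highest mean was used.

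Named genes were the 10 largest differences in each direction and the 15 largest in each direction outside the cell cycle lists. These had the same sign in all 5 plates. Up to 5 genes per list were added by size, whatever their sign by plate, from 30 of the 37 lists. The lists of other cell types were not used for this choice. Well known list members were given besides. Of the listed genes 2 are not reported here and were left out of their lists. The members and lists were chosen with earlier results of these data known. The alternatives were another pseudocount, filter, scale and split, and cells left out. The ERCC scale and the removal of cells by papilla, muscle, endothelial, immune or melanocyte markers were added after seeing the data. The steps were tried on these cells dealt at random into 2 sides within plates, with known folds planted in some genes. Such sides do not differ in genes seen as the real ones do, so that trial cannot check this part. Python 3.11.15, numpy 2.4.6, pandas 2.3.3, scipy 1.17.1 and matplotlib 3.10.9 were used.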

Additional observations from a re-analysis of the deposited data

How the results depend on the processing

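No paired analysis was possible because the replicate numbers name single cells and the result comes from no test. Each plate holds both sides, and with the differences within plates weighted equally 11.5% of genes were higher and 1.33% lower. In all cells 61.5% were cycling, and of the genes measured 10.9% were higher and 1.3% lower. With log2(TPM + 10) these gene shares were 1.27% and 0.199%, and on the ratio of mean TPM 6.96% and 2.12%. With TPM rescaled after leaving out ribosomal, ERCC and mitochondrial rows they were 19.4% and 3.06%, with 68.9% of cells cycling. Within strata of genes seen 4.77% were higher. With Mki67 at 10 TPM or more against below 1 TPM the shares were 17.6% and 2.75%, with 50.9% cycling. With the split by Top2a 0.84% were lower, and the split by 10 G2/M genes put 47% of cells on the cycling side. On the ERCC scale 25.5% were higher and 0.598% lower. Without cells with papilla, muscle, endothelial or immune markers 7.13% were higher. Without the 25% of cells with the most melanocyte marker TPM 70.7% were cycling. Leaving out each plate in turn gave 10.2% to 12.3% higher genes, 1.1% to 1.84% lower genes and 58.3% to 64.5% cycling cells. The cause of these shifts was not tested. The planned removal of cells with 2 or more markers of any other cell type was not run, since it left 9 cells, 7 of them cycling.

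Some list medians crossed 0. On the ratio of mean TPM the hedgehog machinery median was -0.04 and that of Notch ligands and receptors -0.07. Within strata glycolysis stood at -0.14 and BMP response at -0.10. With a filter of 10% of cells the inner root sheath median was 0.01 and the differentiated epidermis median 0.02. The latter had 2 genes in the main setting. It also stood at 0.29 with Mki67 at 10 TPM or more and at 0.21 with the G2/M split. Without plates P1-3, P1-4 and P1-5 it stood at 0.25, 0.32 and 0.25. Its range over the plates left out was -0.82 to 0.32. Whether a gene passed the filter was decided anew in each setting, so the members of a list could change. In the settings from 0.21 to 0.32 the median equalled the value of Krt10, and Ivl stood between -2.63 and -1.81. The shaft median was -0.02 with the Top2a split. Signals to melanocytes stood at 0.01 with the G2/M split and 0.03 on the ERCC scale. Without cells with papilla or other markers, glycolysis stood at -0.13, differentiated epidermis at 0.14 (again the value of Krt10), BMP response at -0.35 and signals to melanocytes at 0.45. Without the 25% of cells rich in melanocyte markers, FGF ligands and receptors stood at -0.19, or at 0.63 with Gpnmb left out of the marker sum. Apart from such changes of members, the cause was not tested. Of 3419 gene values under alternatives 2793 moved by less than the spread between plates and 626 by more. The changed filters alter which genes are measured and not their values, so no value could move there. With 4000 or more genes, plates weighted equally or 1 plate left out, most or all cells are reused, and no gene moved by more. The 2793 therefore overstate the stability. With log2(TPM + 10) 64 genes moved by less than the spread, and more genes moved by more. None of the 93 named genes counted as higher or lower changed sign. Within strata 15 of these were under 1 in size, without the cells rich in melanocyte markers 15, or 4 with Gpnmb left out of the sum, and on the ERCC scale 6. Genes at low TPM are limited by unknown depth.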

Other observations

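Immediate early genes, which dissociation can induce, showed no common direction: 0 of 13 measured were counted, and their median was -0.18, from -0.42 to 0.74 over plates. Jun stood at 0.90 and Nr4a1 at 0.56, above 0 in all 5 plates, while Egr1 stood at -0.63 with 2 plates above 0 and Ier3 at -0.56. The p53 target Aen stood at 0.90, and the list median was -0.08.

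Kit, the receptor of Kit ligand, was carried by 49.5% of cycling and 17.5% of non-cycling cells, with a log2 difference of 1.52 and of 0.60 within strata. The ligand and the receptor thus stood on opposite sides of 0. In the P25 to P27 matrix Kit was at 0 TPM in cycling and 0.00525 TPM in non-cycling cells.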
